A study of Mus musculus with 7 samples.

Results

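Ihh, Areg, Calca, Il13ra2, Acod1, Hdc, Cyp26a1, Fst, Gata2 and Prap1 are genes of the mouse uterine epithelium that are known to respond to progesterone around the time of implantation. These 10 genes were taken by name from 53379 gene IDs, and their read counts were followed through every library of a study of endometrial epithelial cells. The cells carried EPCAM, an adhesion molecule of epithelia, and were isolated with magnetic beads from dissociated uteri. Each of the 4 mutant libraries was made from a single CD-1 mouse, 120 days old, of genotype LtfCre0/+; Brg1 fl/fl. In these mice Cre recombinase is expressed from Ltf (lactoferrin), a gene of the uterine epithelium, and deletes floxed Brg1, the gene also called Smarca4, which encodes an ATPase that drives the chromatin remodeller SWI/SNF. For the 3 control libraries, cells of several wild-type CD-1 mice were pooled, and the data were reanalysed from an earlier series. The age of the control mice, and the oestrous cycle stage and hormone state of all mice, are not stated in the sources used here, and the labels name no hormone treatment. Genotype, library set and pooling therefore cannot be told apart.

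Progesterone acts through its receptor, encoded by Pgr, which binds DNA and recruits cofactors. Before implantation, epithelial receptor activity raises signals that reach the stroma, of which Indian hedgehog (Ihh) is the best known, and the epithelium secretes growth factors, enzymes and binding proteins that make the lining receptive to an embryo. Several of the genes described here, among them Areg, Calca, Hdc, Acod1 and Cyp26a1, are known to rise in rodent uterus under progesterone in early pregnancy.

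Promoter sequences of RefSeq (GRCm38.p6), from 250 bases before to 50 bases after each start, were found for 9 of the 10 genes, and Fst was not matched. The windows of Hdc, Areg, Cyp26a1 and Prap1 are printed because these genes carried the largest differences or the widest spread described here, or, for Areg, a match to a rare motif. Capitals mark exact matches, on either strand, to 8 searched motifs: the progesterone and glucocorticoid receptor motif AGAACA and its full palindrome, the GATA site AGATAA, the retinoic acid receptor motifs AGTTCA and AGGTCA, the cAMP response element TGACGTCA, the AP-1 site TGANTCA and the TATA box TATAAA. Positions count from the start base as 0.
Hdc promoter (chr2:126618629-126618928, minus strand): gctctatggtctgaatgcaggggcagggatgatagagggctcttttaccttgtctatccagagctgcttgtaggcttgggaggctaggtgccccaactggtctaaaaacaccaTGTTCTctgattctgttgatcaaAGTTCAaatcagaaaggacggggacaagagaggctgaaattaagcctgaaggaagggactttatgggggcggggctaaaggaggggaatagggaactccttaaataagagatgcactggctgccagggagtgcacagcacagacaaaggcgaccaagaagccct
Areg promoter (chr5:91139349-91139648, plus strand): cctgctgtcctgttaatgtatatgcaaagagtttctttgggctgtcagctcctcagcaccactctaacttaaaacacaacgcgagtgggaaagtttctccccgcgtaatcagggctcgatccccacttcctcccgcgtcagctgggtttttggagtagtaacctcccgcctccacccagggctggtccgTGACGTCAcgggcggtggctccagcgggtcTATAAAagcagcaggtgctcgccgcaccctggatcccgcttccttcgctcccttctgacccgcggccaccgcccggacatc
Cyp26a1 promoter (chr19:37697558-37697857, plus strand): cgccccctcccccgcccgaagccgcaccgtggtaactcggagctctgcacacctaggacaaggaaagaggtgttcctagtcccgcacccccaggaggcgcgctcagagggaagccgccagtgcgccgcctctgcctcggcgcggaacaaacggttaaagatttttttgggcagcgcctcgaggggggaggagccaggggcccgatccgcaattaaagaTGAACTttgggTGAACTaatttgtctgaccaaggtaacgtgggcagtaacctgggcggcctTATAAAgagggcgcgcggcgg
Prap1 promoter (chr7:140093146-140093445, plus strand): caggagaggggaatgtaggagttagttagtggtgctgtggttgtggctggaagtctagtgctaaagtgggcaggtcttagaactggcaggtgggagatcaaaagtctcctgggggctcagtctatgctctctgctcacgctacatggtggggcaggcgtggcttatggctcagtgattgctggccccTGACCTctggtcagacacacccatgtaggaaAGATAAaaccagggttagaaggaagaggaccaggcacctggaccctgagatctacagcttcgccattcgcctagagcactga

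The progesterone receptor motif was found in the window of Hdc alone among the members, written TGTTCT on the strand of the gene from −137 to −132. Of 32544 promoter windows in the table, 18.9% hold it. The full palindrome was in no member window and in 0.00922% of all windows. Hdc also holds AGTTCA from −114 to −109, a motif of 14.0% of windows. The RefSeq start of Hdc lies 621 bases inside the gene as GENCODE M21 annotates it, so other starts of Hdc are not covered. In Areg, whose product is made under cAMP signals in other tissues, TGACGTCA stands at −61 to −54, ahead of a TATA box at −31 to −26. TGACGTCA occurs in 1.80% of windows and TATAAA in 13.6%. The window of Cyp26a1, a gene that retinoic acid itself induces, holds TGAACT, the reverse complement of AGTTCA, at −32 to −27 and again at −21 to −16, 5 bases apart. Its TATAAA stands at 29 to 34, after the start base and not ahead of it as in Areg. Prap1 holds AGATAA at −32 to −27, a motif of 11.2% of windows, and TGACCT, the reverse complement of AGGTCA, at −63 to −58, a motif of 16.2% of windows. The windows of Areg and Cyp26a1 are rich in CpG, with 21 and 26 CpG dinucleotides, against 3 in Hdc, 4 in Prap1 and a median of 7 over all windows. Of the members not printed, Calca and Il13ra2 also held AGATAA, Calca and Acod1 AGGTCA, Acod1 and Il13ra2 TATAAA, and Il13ra2 the AP-1 letters, which 7.79% of windows hold. Each match is a run of letters and not a measured binding site.

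Reads counted in genes numbered 12436971 to 13364080 in mutant libraries and 21372036 to 25862245 in control libraries. Levels are given as counts per 1000000 reads (CPM) after TMM scaling, and differences, with their SE, as log2 fold changes of mutant over control from edgeR. A count of 3 reads was taken as the floor and equals 0.183 to 0.235 CPM for mutant and 0.136 to 0.159 CPM for control libraries, for counting error alone. Smarca4, the deleted gene, had 87.6, 56.7, 86.9 and 105 CPM in replicates 1 to 4 of the mutants, against 263, 245 and 279 CPM in replicates 1 to 3 of the controls (edgeR log2 fold change −1.64 ± 0.23 SE, adjusted p = 0.00967), and this call was lost when any single control was left out (up to adjusted p = 0.0612). Mutant replicate 1 stood apart from the other mutants: its Ltf level was 82.7 CPM, against 1146 to 2023 CPM in the other mutants and 2940 to 3687 CPM in controls. Its level of the proliferation gene Mki67 was 12.3 CPM, against 193 to 369 CPM in the other mutants and 72.6 to 128 CPM in controls. Ltf and Mki67 were chosen after their values were seen. Summed markers of epithelium (7 genes, Epcam, Cdh1 and keratins among them) ranged from 6455 to 8563 CPM in mutants and from 12983 to 14984 CPM in controls, and 8 stromal markers from 163 to 471 CPM in mutants and from 538 to 689 CPM in controls. No marker of either list was at 0 in all libraries, and the part of these differences in the results was not tested. In bulk RNA, fewer cells of a type and less RNA per cell cannot be told apart.

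Of the 10 genes, 9 were tested by edgeR, and 0 were higher and 0 lower in mutants past an adjusted p of 0.05. Among all 14610 tested genes, 11.5% passed (5.37% higher, 6.18% lower). At an unadjusted p under 0.05 there were 2 of 9, Hdc and Prap1, against 31% of all tested genes. With limma-voom 0 of the same 9 members passed (13.3% of all genes). DESeq2 gave an adjusted p to 9 members, Il13ra2 among them, so a member tested by edgeR had none. Of those 9, 1 passed, Hdc. The DESeq2 share of all genes, here and below, was 17.7% of 18651 genes with an adjusted p from DESeq2. The fold changes of 4 members were positive and of 5 negative, with a median log2 of −0.21 over members and 0.06 over all tested genes. The values of the 4 mutants overlapped those of the 3 controls for 9 of the 10 genes. Prap1 was the exception, whereas 31.5% of all tested genes did not overlap. In the authors' deposited table Hdc has an adjusted p of 0.00662, Cyp26a1 has none, and the other members have adjusted p from 0.0592 to 0.871.

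**Figure D1:**
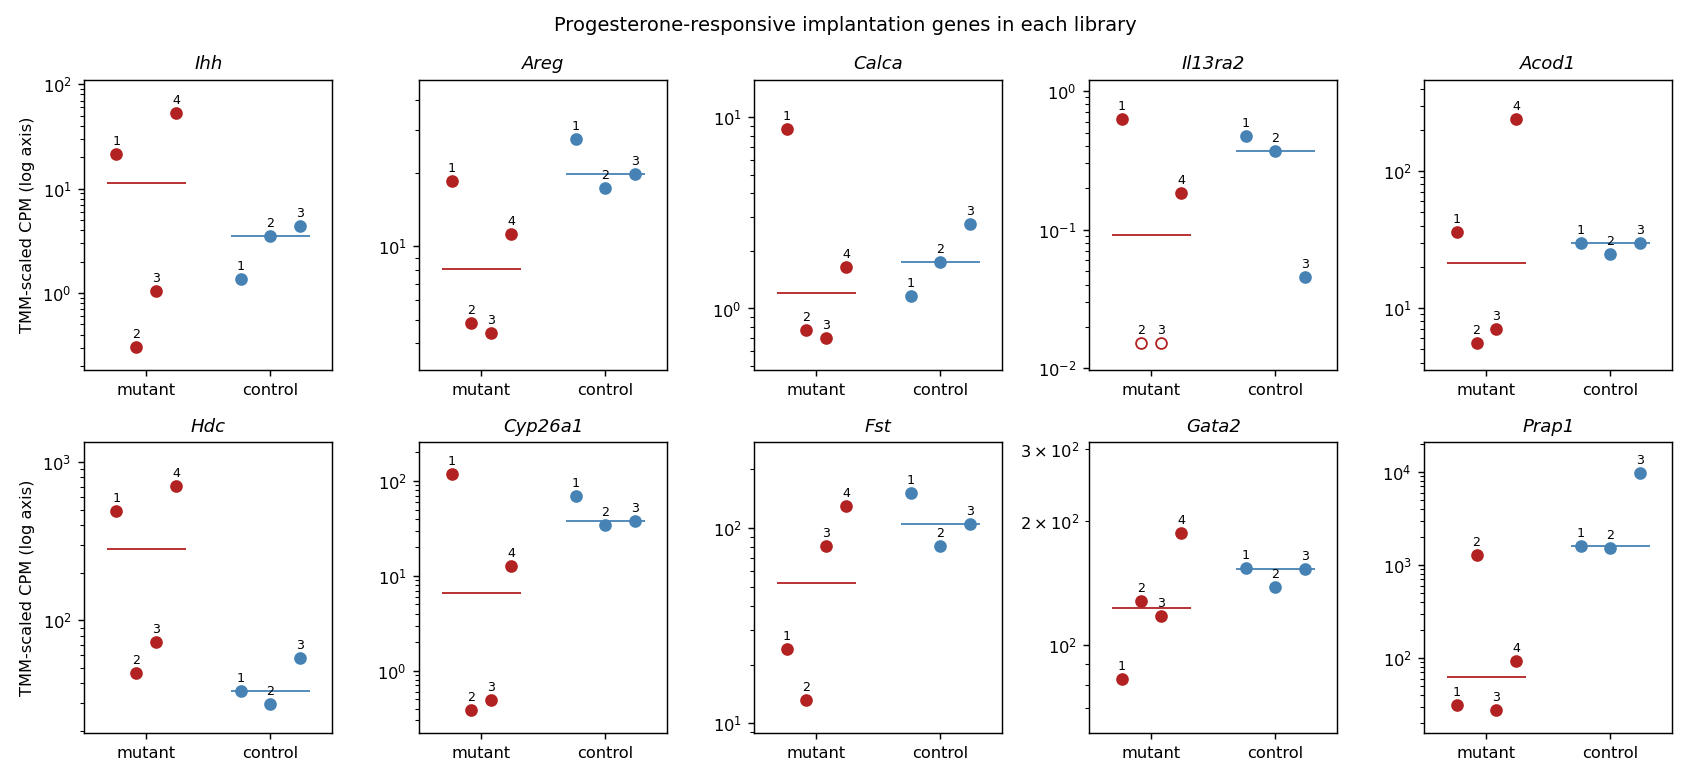
Level of each of the 10 genes in every library, in TMM-scaled CPM on a log axis, with mutant libraries (red, n = 4) left of control libraries (blue, n = 3). Numbers are replicates, horizontal lines are group medians and open circles stand for 0 reads, drawn at the bottom of the axis. Mutant points of Ihh, Acod1 and Cyp26a1 lie far apart while control points lie closer together, and only Prap1 shows no overlap between groups.

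Indian hedgehog is the epithelial ligand through which progesterone action reaches the stroma. Ihh (ENSMUSG00000006538.12, chr1:74945315-74951672, minus strand) had 21.5, 0.307, 1.05 and 53.5 CPM in replicates 1 to 4 of the mutants, against 1.37, 3.54 and 4.36 CPM in replicates 1 to 3 of the controls. Replicates 1 and 4 were above every control and replicates 2 and 3 below every control, with 174 times as much in the highest mutant as in the lowest. The fitted difference was 2.62 ± 1.51 SE (log2, adjusted p = 0.280). Replicate 2 had 4 reads of Ihh and replicate 4 had 877.

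Of 18 listed genes of the hedgehog pathway 12 were tested, and with edgeR 0 were higher and 0 lower (median log2 fold change −0.13), against 11.5% of all tested genes that passed. At an unadjusted p under 0.05 there were 4 of the 12, Smo, Gli3, Ptch1 and Sufu, against 31% of all tested genes. DESeq2 called 2, Smo and Sufu (17.7% of all genes), and limma-voom 0 (13.3% of all genes). The receptor Ptch1, itself a target of hedgehog signals, had 70.7, 35.2, 50.3 and 48.4 CPM in mutants, against 27.0, 35.4 and 19.3 CPM in controls (0.91 ± 0.30 SE, adjusted p = 0.0935). Replicates 1, 3 and 4 were above every control and replicate 2 lay within them. Gli1, a transcriptional target of the pathway, had 0.614 to 2.03 CPM in mutants, against 0.897 to 1.16 CPM in controls (0.07 ± 0.50 SE, adjusted p = 0.937). Nr2f2, which acts below Ihh in the stroma, had 26.1 to 45.7 CPM in mutants, against 28.0 to 41.6 CPM in controls (0.03 ± 0.26 SE, adjusted p = 0.954).

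Amphiregulin is a ligand of the EGF receptor and rises in luminal epithelium under progesterone. Areg (ENSMUSG00000029378.5, chr5:91139599-91148432, plus strand) had 18.6, 4.83, 4.41 and 11.3 CPM in mutants, against 27.6, 17.4 and 19.9 CPM in controls. Replicates 2, 3 and 4 were below every control and replicate 1 lay within the controls. The difference was −1.15 ± 0.52 SE (adjusted p = 0.181). Without mutant replicate 1 it was −1.60 ± 0.42 SE and passed the test (adjusted p = 0.0297). Calls rose for genes at large in that fit, to 4403 of all tested genes from 1687 with all 7 libraries.

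The receptor for amphiregulin was lower in every mutant. Egfr had 28.8, 53.5, 45.8 and 33.4 CPM in mutants, against 255, 188 and 228 CPM in controls, a 5.54-fold lower level (−2.47 ± 0.26 SE, adjusted p = 0.00509). Groups did not overlap, as for 31.5% of all tested genes. Of 13 genes listed for the EGF family 11 were tested, 0 were higher and 3 lower (median −0.35), or 27.3%, against 11.5% of all tested genes. Ereg, which encodes the related ligand epiregulin, fell to 0.210 to 1.04 CPM in mutants, against 4.55 to 8.18 CPM in controls (−3.25 ± 0.53 SE, adjusted p = 0.0145). Rhbdf2, which helps the protease that sheds these ligands to mature, fell to 58.7 to 98.8 CPM in mutants, against 176 to 229.8 CPM in controls (−1.33 ± 0.22 SE, adjusted p = 0.0145). The call for Egfr held with any library left out (highest adjusted p = 0.0351), while those for Ereg and Rhbdf2 were lost when any single control was left out (up to adjusted p = 0.0789 and 0.0829).

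Calcitonin, from Calca, is a peptide hormone secreted by glands of the rodent uterus before implantation, and the same gene also encodes the neuropeptide CGRP. Calca (ENSMUSG00000030669.13, chr7:114631478-114636357, minus strand) had 8.68, 0.767, 0.700 and 1.65 CPM in mutants, against 1.16, 1.75 and 2.77 CPM in controls. Replicate 1 was above and replicates 2 and 3 below every control, and replicate 4 lay within them. The difference was 0.63 ± 0.93 SE (adjusted p = 0.682) and turned to −0.80 without replicate 1. Summed gland markers (7 genes) came to 13615 CPM in replicate 1, against 603 to 970 CPM in the other mutants and 10573 to 50786 CPM in controls. Most of the sum in replicate 1 came from the secreted proteins Prss29, Prss28 and Spink1, at 8563, 2716 and 1887 CPM. Sox9 was also highest in replicate 1 among mutants. The others of the list were not: Lif was lowest there, at 103 CPM, against 376 to 835 CPM in the other mutants, and Cxcl15 and Foxa2 were highest in replicate 4 (89.4 and 11.4 CPM, against 29.0 and 9.70 CPM in replicate 1). The part of gland cells in the value of Calca was not tested. Neuronal markers summed to 5.73 to 10.4 CPM in mutants, against 3.85 to 6.98 CPM in controls, with Snap25 at 0 in all libraries.

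Of 10 listed calcitonin peptides and receptors 6 were tested, 0 were higher and 1 lower (median −0.42), or 16.7%, against 11.5% of all tested genes. Calcr, the calcitonin receptor, had 0 reads in every library, which allows up to the floor given above. Adm2, a peptide of the same family, fell to 0.153 to 0.910 CPM in mutants, against 2.43 to 3.55 CPM in controls (−2.71 ± 0.56 SE, adjusted p = 0.0272). That call was lost when mutant replicate 4 or any single control was left out (highest adjusted p = 0.117).

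Il13ra2 encodes a high-affinity receptor that binds interleukin 13 and is held to act as a decoy. Il13ra2 (ENSMUSG00000031289.10, chrX:147383476-147429192, minus strand) was hardly detected: 8, 0, 0 and 3 reads in mutants, against 9, 7 and 1 reads in controls. These are 0.626, 0, 0 and 0.183 CPM in mutants, against 0.475, 0.370 and 0.0455 CPM in controls, and the filter on low counts kept it out of the test. The 0 of mutant replicates 2 and 3 allows up to 0.230 and 0.210 CPM, so a difference was not detectable at this depth. Of the listed receptor chains that signal for interleukins 4 and 13, Il4ra and Il13ra1 were abundant. Il2rg was not, with 1.33 to 3.21 CPM in mutants, against 2.18 to 4.91 CPM in controls. Il4ra, the chain shared by both cytokines, had 132, 101, 101 and 89.0 CPM in mutants, against 384, 306 and 322 CPM in controls (−1.67 ± 0.19 SE, adjusted p = 0.0061), with no overlap and a call that held with any library left out (highest adjusted p = 0.0408). Its partner Il13ra1 had 185 to 330.2 CPM in mutants, against 227 to 276 CPM in controls (−0.05 ± 0.23 SE, adjusted p = 0.910). Il4ra was the only gene of 7 tested in this pathway (9 listed) to pass the test (median −0.28), or 14.3%. Over all tested genes 11.5% passed and 31.5% did not overlap.

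Follistatin binds and neutralises activins and some BMPs, and uterine follistatin is needed for a receptive endometrium in mice. Fst (ENSMUSG00000021765.8, chr13:114452290-114458951, minus strand) had 24.0, 13.1, 80.5 and 129.6 CPM in mutants, against 152, 80.8 and 105 CPM in controls. Replicates 1 to 3 were below every control, replicate 3 by a narrow margin, and replicate 4 lay within them. The difference was −0.87 ± 0.72 SE (adjusted p = 0.450). A listed gene on the opposite strand, Gm47040, overlaps Fst, and the stranded counts used here separate both strands.

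Of 14 genes listed for activin and BMP signals 13 were tested, 0 were higher and 2 lower (median −0.49), or 15.4%, against 11.5% of all tested genes. Inhbb, which encodes the subunit of activin B, had 116, 86.1, 50.4 and 32.2 CPM in mutants, against 314, 235 and 158 CPM in controls (−1.73 ± 0.45 SE, adjusted p = 0.0487). Smad3, a transcription factor that carries the activin and TGF-beta signal to the nucleus, had 168, 73.4, 81.0 and 132 CPM in mutants, against 552, 511 and 551 CPM in controls (−2.24 ± 0.31 SE, adjusted p = 0.00982). Neither gene overlapped between groups, as for 31.5% of all tested genes. Smad3 lost its call when any single control was left out (up to adjusted p = 0.0612), and with 1 library left out Inhbb kept its call only where that library was mutant replicate 1 (otherwise up to adjusted p = 0.185). Inhba, which encodes the subunit of activin A, was near 1 CPM in both groups (−0.32 ± 0.44 SE, adjusted p = 0.661).

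Gata2 encodes a transcription factor that acts with the progesterone receptor in the mouse uterus. Gata2 (ENSMUSG00000015053.14, chr6:88193891-88207032, plus strand) had 82.6, 128, 118 and 187 CPM in mutants, against 154, 138 and 153 CPM in controls. It was the steadiest of the tested members, with replicate 4 above and replicates 1 to 3 below every control. The difference was −0.21 ± 0.27 SE (adjusted p = 0.641) and took the other sign with scaling by total count (0.17). Of 7 listed GATA factors and cofactors 3 were tested and 0 passed with edgeR (median −0.52), against 11.5% of all tested genes. Of the list, 1 gene, Gata6, had an unadjusted p under 0.05 (31% of all tested genes). DESeq2 called 2, Zfpm2 and Gata6 (17.7% of all genes), and limma-voom 1, Gata6 (13.3% of all genes). The most abundant was the cofactor Zfpm1 with 12.0 to 30.7 CPM in mutants, against 21.3 to 31.2 CPM in controls (−0.52 ± 0.35 SE, adjusted p = 0.346).

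Acod1, also called Irg1, encodes the enzyme that makes itaconate from aconitate and is known both from activated macrophages and from the progesterone-primed luminal epithelium of mice. Acod1 (ENSMUSG00000022126.6, chr14:103046977-103056573, plus strand) had 35.7, 5.52, 7.003 and 240.2 CPM in mutants, against 29.9, 25.0 and 30.0 CPM in controls. The controls agreed closely, while replicates 1 and 4 were above and replicates 2 and 3 below all of them. The difference was 1.35 ± 1.24 SE (adjusted p = 0.497) and turned to −0.81 without replicate 4. Macrophage and neutrophil markers (10 genes) summed to 388 CPM in replicate 4, the lowest of the mutants, whose range was 388 to 647 CPM, against 451 to 604 CPM in controls. Within that list the neutrophil genes S100a8 and S100a9 were highest in replicate 4, at 17.6 and 31.4 CPM, against 0.230 to 0.910 and 0.156 to 1.61 CPM in the other mutants and 0.211 to 1.22 and 0.633 to 2.32 CPM in controls. Csf3r, also of neutrophils, had 26.5 CPM in replicate 4, against 4.45 to 5.71 CPM in the other mutants and 3.91 to 4.85 CPM in controls. Ptprc, Lyz2, Csf1r, Adgre1, C1qa and C1qb were lowest in replicate 4 among mutants. The part of these cells in the value of Acod1 was not tested. Of 12 genes listed around itaconate and the citrate cycle, all tested, 1 was higher and 0 lower (median 0.32), or 8.33%, against 11.5% of all tested genes. Nfe2l2 encodes a transcription factor that itaconate is known to activate in macrophages, an activation that RNA levels do not measure. It had 141, 188, 217 and 151 CPM in mutants, against 111, 101 and 93.0 CPM in controls (0.78 ± 0.20 SE, adjusted p = 0.0484). Among mutants it was highest in replicates 3 and 2, which had the least Acod1. With 1 library left out the call for Nfe2l2 was kept only where that library was mutant replicate 1 (otherwise up to adjusted p = 0.161).

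Histidine decarboxylase, from Hdc, makes histamine, in the preimplantation uterus of mice in the epithelium under progesterone and elsewhere mainly in mast cells. Hdc (ENSMUSG00000027360.5, chr2:126593667-126619299, minus strand) had 494, 46.3, 72.5 and 710.0 CPM in mutants, against 35.5, 29.6 and 57.4 CPM in controls. Replicates 1, 3 and 4 were above every control, replicate 3 by little, and replicate 2 lay within them. Its difference of 3.02 ± 1.004 SE, an 8.09-fold higher level, was the largest positive one of the members and did not pass the edgeR test (adjusted p = 0.0932). DESeq2 on the same counts gave 3.01 ± 0.85 SE with adjusted p = 0.00447, and the authors' deposited table lists 3.03 ± 0.88 SE with adjusted p = 0.00662. With limma-voom the value was 2.23 ± 0.99 SE (adjusted p = 0.160), and with any single library left out edgeR gave adjusted p from 0.0539 to 0.258.

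Of 8 mast cell markers, 7 were highest in replicates 1 and 4 among the mutants, the libraries that also had the most Hdc. The 8 markers summed to 1095, 51.5, 123 and 234 CPM in mutants, against 470, 519 and 353 CPM in controls. Most of the sum in replicate 1 and in controls came from Kit and Hpgds, and Kit is also present in other cells. Kit, a growth factor receptor, had 740, 6.21, 19.6 and 102 CPM in mutants, against 215, 238 and 228 CPM in controls. Hpgds, which makes prostaglandin D2, had 140, 7.59, 10.1 and 8.96 CPM in mutants, against 147, 217 and 88.5 CPM in controls. The 6 others are proteases of the granules and chains of the IgE receptor. Cpa3, a protease of mast cell granules, had 58.6, 8.36, 18.8 and 32.7 CPM in mutants, against 22.2, 12.1 and 5.59 CPM in controls (1.15 ± 0.70 SE, adjusted p = 0.305). Cpa3 was highest in replicate 1 and next in replicate 4, both above every control, whereas Hdc was highest in replicate 4 and next in replicate 1. The granule proteases Cma1, Tpsb2 and Mcpt4 and the receptor chain genes Fcer1a and Ms4a2 had the same order of mutants as Cpa3, and Mcpt4 reached the highest level of these, 65.3 CPM. In replicate 4, Tpsb2 and Mcpt4 lay within the controls. Of the 8 markers 7 were tested, 1 was higher and 0 lower, or 14.3%, against 11.5% of all tested genes. The gene called was Ms4a2, a chain of the IgE receptor, with 0.460 to 2.74 CPM in mutants, against 0.0909 to 0.158 CPM, or 2 to 3 reads a library, in controls (adjusted p = 0.0305). That call was lost when any single control was left out (adjusted p = 0.122 to 0.134) and with limma-voom (adjusted p = 0.052). It held without mutant replicate 2 (adjusted p = 0.0270). Without any other single mutant, the filter on low counts kept Ms4a2 out of the test. No marker was at 0 in all libraries, and the part of mast cells in the value of Hdc was not tested.

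Neither of the main enzymes that remove histamine passed the test with edgeR, while DESeq2 called both. Aoc1, which encodes diamine oxidase and was the most abundant gene of this list in controls, had 6.73, 119, 26.8 and 3.72 CPM in mutants, against 601, 197 and 264 CPM in controls (−3.18 ± 1.14 SE, adjusted p = 0.109). Replicates 4 and 1, which had the most Hdc, had the least Aoc1. Hnmt, which methylates histamine, had 33.4, 25.7, 13.4 and 18.0 CPM in mutants, against 8.39, 11.9 and 11.5 CPM in controls (1.10 ± 0.35 SE, adjusted p = 0.0831). Neither gene overlapped between groups, as for 31.5% of all tested genes. Of 4 tested genes for histamine handling (8 listed) 0 passed with edgeR (median 0.23), against 11.5% of all tested genes. At an unadjusted p under 0.05 there were 3, Hnmt, Aoc1 and Slc18a2 (31% of all tested genes). DESeq2 called 2, Hnmt and Aoc1 (17.7% of all genes), and limma-voom 1, Aoc1 (13.3% of all genes).

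CYP26A1 degrades retinoic acid and is induced in the mouse uterine epithelium before implantation. Cyp26a1 (ENSMUSG00000024987.5, chr19:37697798-37701536, plus strand) had 119.7, 0.384, 0.490 and 12.6 CPM in mutants, against 70.3, 34.5 and 37.8 CPM in controls. Replicate 1 was above every control and replicates 2, 3 and 4 below, and the highest mutant had 312 times the level of the lowest, the widest range of the tested members. Replicates 2 and 3 had 5 and 7 reads, against 653 to 1332 reads in controls. The difference was −0.52 ± 1.58 SE (adjusted p = 0.853). Without mutant replicate 1 it was −3.31 ± 1.20 SE, which did not pass the test either (adjusted p = 0.0764). Of the 7 gland markers described with Calca, Prss29, Prss28, Spink1 and Sox9 were also highest in replicate 1 among mutants, while Foxa2 and Cxcl15 were highest in replicate 4 and Lif in replicate 2. Their part in the value of Cyp26a1 was not tested. Of 16 genes listed for retinoid handling 12 were tested and 0 passed with edgeR (median 0.03), against 11.5% of all tested genes. Stra6, Aldh1a2 and Rara, 3 genes of the list, had an unadjusted p under 0.05 and were called by DESeq2, and limma-voom called 1 gene, Lrat. Over all genes these shares were 31% unadjusted, 17.7% with DESeq2 and 13.3% with limma-voom. Rdh10, the most abundant of them, makes retinal from retinol and had 91.6 to 307 CPM in mutants, against 125 to 203 CPM in controls (0.19 ± 0.43 SE, adjusted p = 0.807). The paralog Cyp26b1 had 0.307 to 1.26 CPM in mutants, against 0.897 to 1.22 CPM in controls (−0.58 ± 0.50 SE, adjusted p = 0.468).

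Prap1 encodes a secreted, proline-rich acidic protein made by the uterine epithelium in pregnancy and by the gut. Prap1 (ENSMUSG00000025467.8, chr7:140093395-140097200, plus strand) had 31.4, 1287, 27.4 and 93.9 CPM in mutants, against 1586, 1526 and 9655 CPM in controls. It was the only one of the 10 genes with every mutant below every control. Replicate 2, however, was close to control replicates 1 and 2, and control replicate 3 was far above them. The difference was −3.56 ± 1.51 SE, an 11.8-fold lower level, and did not pass the test (unadjusted p = 0.0473, adjusted p = 0.156). Without mutant replicate 2 it was −6.38 ± 1.08 SE and passed (adjusted p = 0.0273). Without control replicate 3 it was −2.09 ± 1.52 SE (adjusted p = 0.459). A gene on the opposite strand, Fuom, overlaps Prap1, and the stranded counts separate both strands. The authors' deposited table lists −3.54 with adjusted p = 0.0592 for Prap1.

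**Figure D2:**
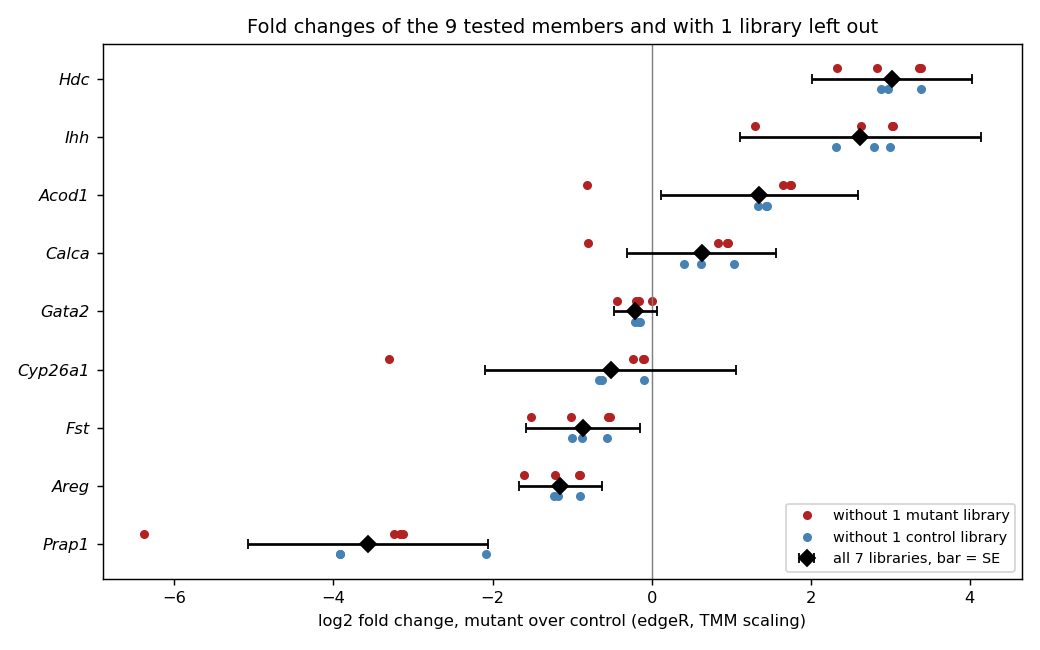
Log2 fold change, mutant over control, of the 9 tested genes from edgeR with all 7 libraries (black diamonds, bars are standard errors) and with 1 mutant library (red) or 1 control library (blue) left out. Hdc at 3.02 and Prap1 at −3.56 are the extremes; leaving out a mutant library carries Acod1 and Calca across 0 and moves Prap1 to −6.38 and Cyp26a1 to −3.31.

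Most tested members were spread widely among mutants against all tested genes, and some were also spread widely within controls. The SD of log2 CPM (prior count 2) among mutants exceeded that among controls for 9 of 9 tested members, as it did for 84.1% of all tested genes. For 7 of 9 it was above 1.49, the 90th percentile of all tested genes within mutants, where the median was 0.519. Cyp26a1 had an SD of 3.78 in mutants and 0.56 in controls, Ihh 3.32 in mutants and 0.85 in controls, Prap1 2.57 in mutants and 1.52 in controls, and Acod1 2.50 in mutants and 0.15 in controls. Hdc had 1.96 in mutants and 0.49 in controls. Areg and Gata2 were the members under the percentile, with 0.98 and 0.48 in mutants and 0.34 and 0.09 in controls. Within controls, where the 90th percentile of all tested genes was 0.595, Prap1 and Ihh were above it and Calca, at 0.588, just under it. A wide spread in mutants was not particular to the members. Among other progesterone-responsive genes Alox15, Klf15 and Zbtb16 had SDs of 3.08, 3.06 and 2.98 in mutants, while others, such as Sgk1 with 0.23, varied little. The controls were pools of mice and the mutants single mice, and the part of pooling in this difference cannot be told apart from genotype.

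No mutant library was high or low for all members. Replicate 4 was the highest mutant for Ihh, Acod1, Hdc, Fst and Gata2, replicate 1 for Areg, Calca, Il13ra2 and Cyp26a1, and replicate 2 for Prap1, while replicate 3 was highest for none. Replicate 2 was lowest for 6 genes, replicate 3 for 4, replicate 1 for 1 and replicate 4 for 0, the tie of Il13ra2 at 0 counted in both. Among all tested genes, replicates 1 to 4 were highest for 34.6%, 23.1%, 24.3% and 18.0% and lowest for 35.3%, 25.5%, 19.6% and 19.5%. No test was made of these counts, as the members share their libraries.

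**Figure D3:**
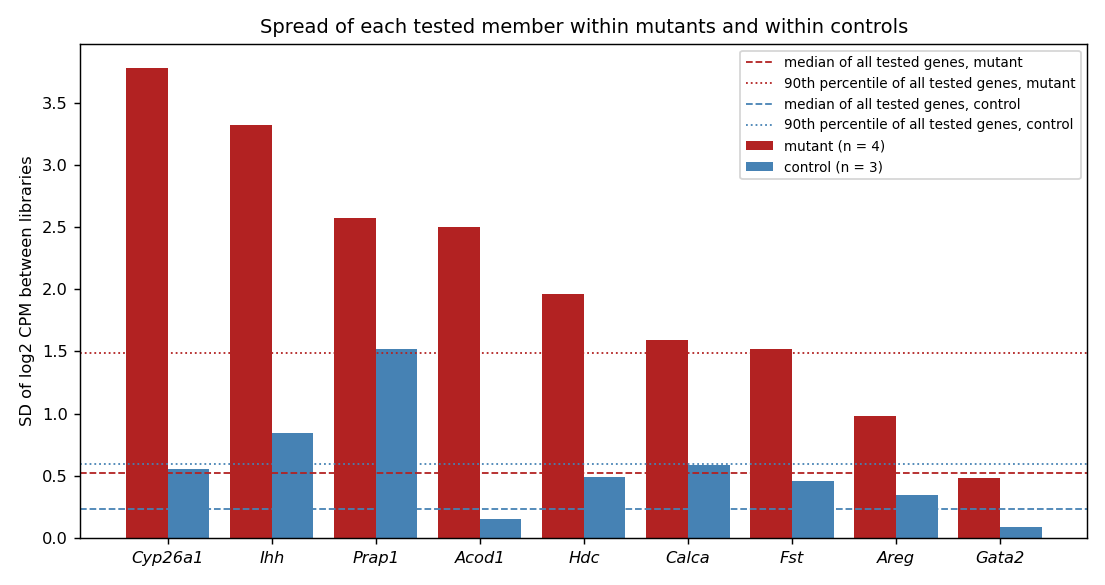
SD of log2 CPM between libraries for each tested gene, mutants (red bars, n = 4) left of controls (blue bars, n = 3), with the median (dashed) and 90th percentile (dotted) of all tested genes in the same colour. Every red bar is taller than its blue neighbour, and 7 of 9 red bars pass the red dotted line at 1.49.

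Compared per kilobase of exon (RPKM), the order of the members differed between groups. In mutants the medians ran from Prap1 (101 RPKM) through Hdc (44.3), Gata2 (22.7), Fst (11.4), Acod1 (8.13), Areg (6.63), Ihh (3.70), Cyp26a1 (3.30) and Calca (0.716) to Il13ra2 (0.0401). Of the 9 pairs of neighbours in this order 8 overlapped between libraries, Calca and Il13ra2 being the exception, so that the mutant order is hardly defined. In controls the medians ran from Prap1 (2557 RPKM) through Gata2 (28.4), Fst (23.0), Cyp26a1 (19.1), Areg (16.4), Acod1 (11.4), Hdc (5.56), Ihh (1.16) and Calca (1.04) to Il13ra2 (0.162). Here 4 of 9 neighbours overlapped, Gata2 with Fst, Fst with Cyp26a1, Cyp26a1 with Areg, and Ihh with Calca. Hdc had rank 2 in mutants and rank 7 in controls, and Cyp26a1 rank 8 in mutants and rank 4 in controls.

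The genes closest to each member over the 7 libraries were found among 13726 tested genes as those with the smallest mean absolute difference of centred log2 CPM. Gata2 had the closest match, the glycerol kinase gene Gk (difference 0.0629), with 17.1, 29.0, 23.4 and 42.1 CPM in mutants and 35.3, 30.8 and 32.6 CPM in controls. Areg was closest to Mmp15, Ppp1r16b and Foxp1 (0.148 to 0.155), of which Foxp1, a forkhead transcription factor, had 241, 48.3, 58.1 and 129 CPM in mutants and 238, 199.9 and 219 CPM in controls. For Hdc the magnesium transporter gene Slc41a3 was closest (0.202), with 16.4, 1.46, 1.96 and 13.8 CPM in mutants and 1.002, 0.635 and 1.59 CPM in controls. Acod1 was closest to Cldn1, a tight junction gene (0.292), with 57.6, 7.67, 10.1 and 246 CPM in mutants and 39.6, 20.6 and 30.3 CPM in controls. Calca was closest to Cwh43 (0.232), Fst to C430049B03Rik (0.319), Ihh to Aldh1a7 (0.372), Cyp26a1 to Ttr (0.454) and Prap1 to Acot12 (0.700). Ttr had 24.8, 0, 0 and 4.14 CPM in mutants and 9.50, 11.7 and 15.8 CPM in controls, also highest in mutant replicate 1 and next in replicate 4. No member was among the 3 closest genes of another.

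The receptor for progesterone was present in all libraries. Pgr had 43.5, 26.4, 63.2 and 125 CPM in mutants, against 39.1, 38.9 and 33.8 CPM in controls (0.80 ± 0.49 SE, adjusted p = 0.308), with replicates 1, 3 and 4 above every control and replicate 2 below. Replicate 4, the highest mutant for Pgr, was also the highest for 5 members and for 18.0% of all tested genes. Replicate 3, next for Pgr, was highest for 0 members and lowest for 4. Esr1, the oestrogen receptor, had 885, 455, 352 and 351 CPM in mutants, against 465, 487 and 434 CPM in controls (0.14 ± 0.35 SE, adjusted p = 0.816).

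Of 20 other progesterone-responsive genes, all tested, 2 were higher and 1 lower (median −0.09), or 15%, against 11.5% of all tested genes. Sgk1, a kinase of ion transport whose excess in human endometrium has been tied to failed implantation, had 136, 122, 169 and 167 CPM in mutants, against 521, 399 and 392 CPM in controls (−1.56 ± 0.20 SE, adjusted p = 0.00821). Fkbp5, a chaperone partner of steroid receptors, had 21.0, 22.5, 18.9 and 23.5 CPM in mutants, against 12.3, 9.999 and 13.8 CPM in controls (0.83 ± 0.21 SE, adjusted p = 0.0426). Wnt7a, a Wnt ligand of the luminal epithelium, had 28.5, 47.3, 66.7 and 63.1 CPM in mutants, against 22.2, 15.2 and 22.7 CPM in controls (1.36 ± 0.33 SE, adjusted p = 0.0415). None of the 3 overlapped between groups, as for 31.5% of all tested genes. The call for Sgk1 was lost without control replicate 1 (adjusted p = 0.0524), and with 1 library left out those for Fkbp5 and Wnt7a were kept only where that library was mutant replicate 1 (otherwise up to adjusted p = 0.155 and 0.147). Luminal markers (4 genes, Wnt7a among them) summed to 197 to 726 CPM in mutants, against 382 to 561 CPM in controls.

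**Figure D4:**
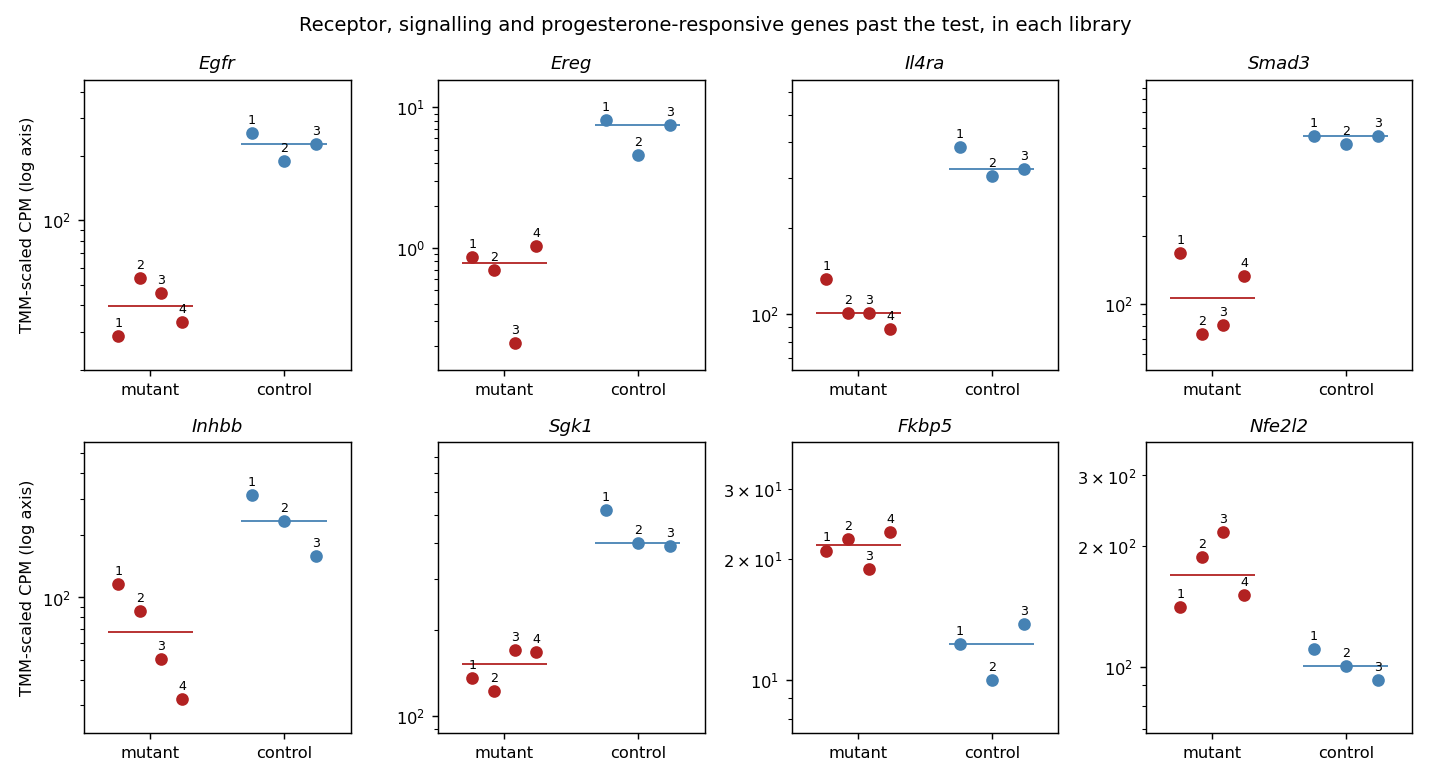
Level of 8 genes of the listed pathways that passed the edgeR test, in TMM-scaled CPM on a log axis for each library, mutants (red, n = 4) left of controls (blue, n = 3), with lines at group medians. Egfr, Ereg, Il4ra, Smad3, Inhbb and Sgk1 are lower and Fkbp5 and Nfe2l2 higher in every mutant than in every control; the genes are shown because they passed.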

How the data were processed

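RNA was measured in 7 libraries, 4 mutant and 3 control, grouped by genotype from the labels. Per the labels' protocols, mRNA libraries were strand-specific. The authors deposited STAR read counts per gene, which are not normalized, and 1 table of results that gives log2 fold changes, p-values and a mean signal per gene. The Wald score and weights that the authors deposited from DESeq2 in that table were not used. The submitters' processing notes name cutadapt, Trim Galore, FastQC, STAR, DESeq2 and the build mm10, with no version.

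The reverse-stranded counts were used, which held 94.8% to 95.6% of both stranded columns. Library sizes left out reads of no gene: per library 3.90% to 6.70% were unmapped, 8.45% to 11.2% multimapping, 10.5% to 14.7% outside genes and 0.827% to 1.29% ambiguous. Symbols, coordinates and exon lengths are from GENCODE M21 (GRCm38), which matched 53274 of 53379 gene IDs.

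Genes kept by filterByExpr (14610) were tested with edgeR 4.0.16 in R 4.3.3 (quasi-likelihood F test, two-sided, TMM scaling, no term but genotype), Benjamini-Hochberg adjusted over all of them, with a threshold of 0.05. Adjusted p-values come from this fit unless DESeq2 1.42.0, limma-voom (limma 3.58.1) or the authors' deposited table is named. CPM is the count per 1000000 reads of the TMM-scaled library size, and SE is the standard error of a log2 fold change. For edgeR it was derived from the fold change and its F statistic, so it differs in kind from the SE of DESeq2. The fit was tested on simulated data. The outcome is not reported here. Mutants are single mice and controls pools, so the tests rest on the spread between those mice and pools. Whether pools shared mice is not stated in the sources used here. Alternatives covered scaling, the filter on low counts, the test, the strand column, each library left out and replicate number as a block, the last without mutant replicate 4.

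The 10 members, the 21 gene lists beside them and the tests were chosen with earlier results of these data known. Named of each list were genes past the threshold, at most the 3 with the largest change, or else the most abundant tested gene, and fixed partner genes. Marker lists of macrophages and neutrophils, endothelium, smooth muscle and oviduct gave 0 calls, against 11.5% of all tested genes that passed. Dcn of the stromal list, Foxa2 and Sox9 of the gland list, and Cdh1 and Krt8 of the epithelial list were lower, and of the neuronal list Syp was higher and Prph lower. With each of the 7 libraries left out in turn, Dcn kept its call in 5 fits, Foxa2 in 3 and the other genes named here in 1 each. The count for the list of the progesterone receptor and its cofactors is not reported here.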

Additional observations from a re-analysis of the deposited data

Results flagged for a closer look

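Among the 4 mutant libraries, 1 library stood far from the other mutants for 4 of the 10 members, by Dixon's ratio of the gap to the nearest library over the whole range in CPM. The ratio was 0.882 for Calca and 0.897 for Cyp26a1, both through the high value of mutant replicate 1 (8.68 CPM of Calca and 119.7 CPM of Cyp26a1). It was 0.872 for Acod1, through the 240.2 CPM of replicate 4, and 0.947 for Prap1, through the 1287 CPM of replicate 2. Each is above the critical value for 4 samples, which about 1 in 20 groups of normally distributed values pass by chance. CPM values are skewed towards high values, so that rate does not hold for them, and 8.87% of 14605 tested genes with any range in the mutants passed the same value. The 10 genes share their libraries, so these are not independent observations. In each case the library apart was the highest of the mutants, and the larger gap was on the high side for all 10 members and for 63.7% of tested genes. The cause was not tested.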

How the results depend on the processing

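The numbers of members past the threshold stayed at 0 higher and 0 lower under the alternatives run, other than DESeq2 (1 higher, Hdc) and the omission of single libraries, which gave 0 to 1 lower (Areg without mutant replicate 1, Prap1 without mutant replicate 2). Counts over all genes moved more. From 784 higher and 903 lower they went to 1178 higher with upper-quartile scaling, 2202 higher and 532 lower with total count scaling, 355 higher without a filter and 1664 higher and 1629 lower with DESeq2. With 1 library left out there were 45 to 2314 higher and 84 to 2089 lower. Both highest numbers came without mutant replicate 1. In that fit Areg was called, and Inhbb, Nfe2l2, Fkbp5 and Wnt7a kept their calls. Scaling moved the median log2 fold change of all genes to 0.20 (upper quartile) and 0.41 (total count), from 0.06, and the share of calls that were higher to 62.6% and 80.5%, from 46.5%. Fold changes of members took the other sign in 9 cases: Ihh with the replicate block (−0.90), Calca with limma-voom (−0.12), with the block (−0.19) and with 1 library left out (range −0.80 to 1.03), Acod1 with limma-voom (−0.16), with the block (−1.36) and with 1 library left out (−0.81 to 1.75), and Gata2 with total count scaling (0.17) and with 1 library left out (−0.43 to 0.0064). The cause was not tested. Shared replicate numbers are not known to pair the samples, as mutants were single mice and controls pools from an earlier series. Correlations of deviations were −0.0359, −0.367 and 0.145 for numbers 1 to 3, and reached −0.297 and 0.373 for unmatched numbers. With so few libraries they cannot show or exclude pairing. The replicate block held numbers 1 to 3 only and so left out mutant replicate 4, the highest mutant for Ihh and Acod1. It gave 2 genes higher and 0 lower, 0 of them members. Sign changes with the block cannot be told apart from that omission. Il13ra2, without a filter, had a log2 fold change of −0.57 ± 1.24 SE (adjusted p = 0.797). Depth limits Il13ra2 above all, and in 2 mutants Ihh, Calca and Cyp26a1, with 4 to 15 reads.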

Other observations

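The authors' deposited table also lists a mean normalized count for each gene. Set against the mean over these 7 libraries, computed from the deposited counts with median-of-ratios size factors, the authors' value was 2918 for Fst, against 1347 from the 7 libraries, and 1559 for Acod1, against 859. For Ihh it was 173, against 197, and for Cyp26a1 527, against 631. Over 13034 tested protein-coding genes the ratio of both means had a median of 1.26, with 1.06 and 1.79 at the 10th and 90th percentiles, and among the members it ran from 0.835 (Cyp26a1) to 2.17 (Fst). The fold changes of the members in the authors' deposited table were close to those of edgeR, for example −0.85 for Fst, against −0.87 from edgeR. Which libraries entered the authors' mean is not stated in the sources used here, and the cause was not tested.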
